A study of Mus musculus with 12 samples.

Results

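Heat shock chaperones are the proteins that hold, fold and refold other proteins in the cytosol, the endoplasmic reticulum and the mitochondrion. The transcripts of 10 of them were followed here in mouse myeloid cells with and without Tet2: Hsp90aa1, Hsp90ab1, Hspa8, Hspa1b, Hspa5, Hsph1, Hspd1, Hspe1, Dnaja1 and Dnajb1. The members were listed by gene symbol, and for each the array row annotated with that symbol alone was taken, or the row with the highest mean over the 12 arrays where a gene had several. Of the 10 members, 8 had such a row above the filter on low values and were among the 16860 genes tested. No row was annotated with Hsp90ab1, the constitutive cytosolic HSP90. Dnaja1, a J-domain partner of cytosolic HSP70, was annotated only on a row that also carried the microRNA gene Mir207.

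HSP70 proteins bind exposed hydrophobic stretches of unfolded chains in a cycle driven by ATP. J-domain proteins bring them their clients and start ATP hydrolysis, and exchange factors such as HSP110 reset the cycle. HSP90 takes over partly folded clients, among them kinases and receptors of growth factor signalling, and the chaperonin of HSP60 and HSP10 encloses chains inside mitochondria. Heat shock factor 1 raises the inducible members under proteotoxic stress by binding repeats of GAA and TTC in their promoters, while the endoplasmic reticulum chaperone Hspa5 is a classical target of the unfolded protein response.

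The study asked how gene expression in AML1-ETO-expressing cells changed early and late after Tet2, which oxidises the methyl group of cytosines in DNA, was disrupted. Bone marrow cells enriched for Kit were taken from mice with floxed Tet2 alleles and CreER, a Cre recombinase that 4-hydroxytamoxifen (4-OHT) activates, and all 4 groups carried a retrovirus for AML1-ETO, a leukaemia fusion protein, and GFP. Cells called Tet2-/- had received 200 nM 4-OHT for 4 days and cells called Tet2fl/fl had received ethanol, so that effects of Tet2 loss, of Cre activity and of 4-OHT cannot be told apart. All cultures grew with SCF, IL-3 and IL-6, and GFP+, CD11b-, Gr1-, CD16/32+ cells were sorted at passage 2 and at passage 10. Each of the groups Tet2fl/fl p2, Tet2-/- p2, Tet2fl/fl p10 and Tet2-/- p10 had 3 arrays. The promoter that drives CreER and the number of mice or cultures behind the arrays were not given in the sources used here, so the p-values measure only the spread between these samples.

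The values are log2 intensities of GeneChip Mouse Gene ST 2.0 arrays, and the number of arrays limits their precision. Array medians lay between 5.57 and 5.68, and arrays of 1 group correlated at 0.984 to 0.991 over all rows. The row for Tet2 averaged 9.97 in Tet2fl/fl p2, 9.94 in Tet2-/- p2, 9.88 in Tet2fl/fl p10 and 9.83 in Tet2-/- p10, and as a single value for the whole gene it does not check the deletion. Of the progenitor and gate transcripts, Kit (9.56 to 11.14), Cd34 (11.56 to 12.31), Mpo (10.9 to 12.67), Elane (8.27 to 12.03) and Fcgr3 (10.57 to 11.13) were above the filter of log2 4.70 on all 12 arrays. Fcgr2b (11.37 to 11.66) was so too. Itgam, which encodes CD11b, lay between 7.04 and 8.78, and Ly6g, an antigen of the Gr1 antibody, between 4.77 and 7.61. These transcripts of antigens sorted against were thus also above the filter on all 12 arrays. Of the Ly6c genes in the same list, Ly6c1 lay between 4.32 and 5.56 and Ly6c2 between 11.43 and 12.64, so not all gate transcripts were low. In such bulk samples, fewer cells of a type and less RNA per cell cannot be told apart.

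Between passage 2 and passage 10, averaged over both genotypes, Hsp90aa1 fell by 0.26 ± 0.06 on the log2 scale (SE), a 1.2-fold lower level (adjusted p 0.0258, limma with Benjamini-Hochberg adjustment over all genes). Hspd1 was 0.28 lower without passing (adjusted p 0.0573), and passed once the replicate number was fitted as a block (adjusted p 0.0471). Between Tet2-/- and Tet2fl/fl cells none of the 8 members passed at passage 2 or at passage 10. The row used for Hspa8 varied by only 0.13 over the 12 arrays.

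**Figure D1:**
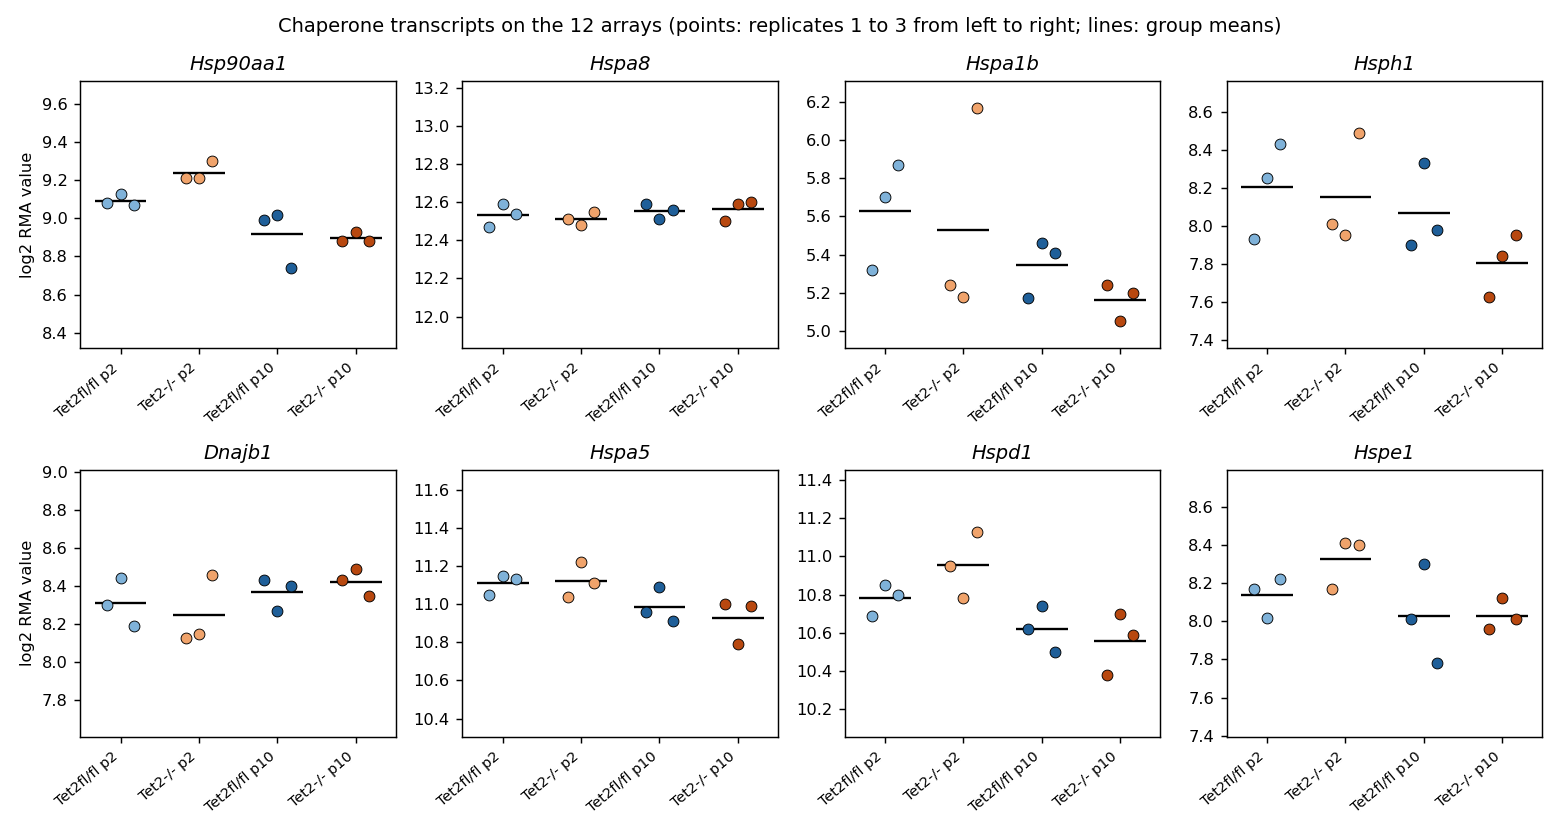
Each panel plots 1 chaperone transcript: the log2 RMA value (vertical axis, the same span in every panel) on each of the 12 arrays by group (horizontal axis), with points for replicates 1 to 3 from left to right and lines for group means. All 6 passage 10 arrays of Hsp90aa1 (8.74 to 9.02) lie below all 6 passage 2 arrays (9.07 to 9.30), Hspa8 is level, and Hspa1b reaches 6.17 on 1 array of Tet2-/- p2.

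Hsp90aa1 (chromosome 12, 110691036 to 110696395, GRCm38.p6) encodes the stress-inducible cytosolic HSP90, which stabilises client kinases and receptors. Its values were 9.08, 9.13 and 9.07 in Tet2fl/fl p2 and 9.21, 9.21 and 9.30 in Tet2-/- p2. At passage 10 they were 8.99, 9.02 and 8.74 in Tet2fl/fl and 8.88, 8.93 and 8.88 in Tet2-/- cells. The group means in descending order were thus Tet2-/- p2 (9.24 ± 0.05, SD, n = 3), Tet2fl/fl p2 (9.09 ± 0.03), Tet2fl/fl p10 (8.92 ± 0.15) and Tet2-/- p10 (8.90 ± 0.03), the last pair of which overlapped. All 6 arrays of passage 10 were below all 6 of passage 2, as in 2.25% of the genes tested. By the test, the mean passage effect was lower and past the threshold for 1 of the 8 members, this gene, against 4.52% of all genes lower and 7.77% called in either direction. A single call among 8 is not read as a property of the group.

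The passage difference of Hsp90aa1 amounted to -0.18 ± 0.08 for the Tet2fl/fl genotype (adjusted p 0.5). For Tet2-/- it was -0.35 ± 0.08 (adjusted p 0.0464), a 1.27-fold lower level with a 95% interval of 0.694 to 0.891 for the ratio of passage 10 to passage 2. In the Tet2-/- cells this was 1 of 8 members called, with 1.73% of all genes called lower and 2.98% called in either direction. In the Tet2fl/fl cells 0 of 8 members were called, as were 0% of all genes, and in that limma fit 0 members and 1722 genes had an unadjusted p under 0.05. The difference between these passage effects was -0.17 ± 0.12 and did not pass (adjusted p 0.999), so the fall was not shown to differ between the genotypes. The call in Tet2-/- cells was lost in 11 of 12 fits that left out 1 array, all but that without Tet2fl/fl p10 replicate 3, with adjusted p 0.0519 to 0.141. It was lost as well after equalising array medians (0.0714), after quantile normalisation (0.0608), with no filter (0.0697) and with only the compared groups (0.0738). The mean passage effect kept its call under each of these scaling and filter choices. Leaving out Tet2-/- p2 replicate 1 or 3, Tet2fl/fl p2 replicate 3, or any 1 array of Tet2-/- p10 ended that call (adjusted p 0.0502 to 0.061).

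Hspa8 (chromosome 9, 40801276 to 40805202) encodes the constitutive cytosolic HSP70, which also uncoats clathrin vesicles and serves chaperone-mediated autophagy. Its values were 12.47, 12.59 and 12.54 in Tet2fl/fl p2, 12.51, 12.48 and 12.55 in Tet2-/- p2, 12.59, 12.51 and 12.56 in Tet2fl/fl p10 and 12.50, 12.59 and 12.60 in Tet2-/- p10. All groups overlapped, and no neighbours in the order of group means (12.51 to 12.56) differed beyond their spread. The within-group SD of 0.047 was at the 1.13th percentile of all genes, whose median was 0.145. The mean of this row was high, 12.54, at the 99.7th percentile, with the highest row mean on the arrays at 13.56. Whether so high a signal narrowed its spread was not tested. The 95% intervals for the ratio of Tet2-/- to Tet2fl/fl were 0.889 to 1.09 at passage 2 and 0.909 to 1.12 at passage 10. The annotation named Hspa8 alone on 3 further rows, which disagreed with this one: their passage 10 differences between genotypes were 0.23, 0.23 and 0.31, against 0.01. The rows at 0.23 were nearly equal on every array (10.01 and 10.00 on Tet2fl/fl p2 replicate 1), so they are not separate evidence. A row shared with the gene Snord14e differed between genotypes by 0.39 at passage 2 and 0.36 at passage 10. It was not tested.

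Hspa1b, Hsph1 and Dnajb1 are the members that heat shock factor 1 raises most strongly in stressed cells. Hspa1b (chromosome 17, 34956429 to 34959238) encodes the stress-inducible HSP70, whose coding sequence is nearly that of its neighbour Hspa1a, so that probes for these copies may not be separable. The row for Hspa1a lay below the filter. In the 300-base promoter window that RefSeq (GRCm38.p6) gives for Hspa1b, a pair of heat shock units, GAANNTTC, lay at positions -104 to -97 from the start site and an inverted CCAAT box, ATTGG, at -67 to -63. That stretch, chr17:34959294-34959353 on the minus strand and upstream of the transcript, is shown with both in capitals.
Hspa1b: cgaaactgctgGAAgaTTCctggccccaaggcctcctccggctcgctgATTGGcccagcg
A pair of units in either order was present in the windows of 17% of all genes, and a CCAAT box on either strand in 41.1%.

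Hspa1b measured 5.32, 5.70 and 5.87 in Tet2fl/fl p2 and 5.24, 5.18 and 6.17 in Tet2-/- p2. At passage 10 it measured 5.17, 5.46 and 5.41 in Tet2fl/fl and 5.24, 5.05 and 5.20 in Tet2-/- cells. The groups overlapped in every comparison, and the highest value was that of Tet2-/- p2 replicate 3. Its within-group SD of 0.323 lay at the 93rd percentile of all genes. The mean of the row over the 12 arrays was low, 5.42, at the 19.8th percentile of the genes tested, with the filter at 4.70. A row annotated with both Hspa1a and Hspa1b averaged 4.26, below the filter. The mean passage effect was -0.32 ± 0.16 (adjusted p 0.225), and -0.16 without Tet2-/- p2 replicate 3. The passage difference in Tet2-/- cells was -0.36 ± 0.23 (adjusted p 0.385), and -0.04 without that array.

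Hsph1 (chromosome 5, 149616843 to 149636498) encodes HSP105, an HSP110 protein that exchanges nucleotide on HSP70. Its window held a heat shock element of 3 units, TTC, GAA and TTC with 2 bases between them, at 36 to 48 bases after the first of its RefSeq start sites. The 30 bases around it are chr5:149636287-149636316 on the minus strand, transcribed from that start site, with the units in capitals.
Hsph1: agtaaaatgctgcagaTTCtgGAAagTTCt
Hsph1 measured 7.93, 8.25 and 8.43 in Tet2fl/fl p2, 8.01, 7.95 and 8.49 in Tet2-/- p2, 7.90, 8.33 and 7.98 in Tet2fl/fl p10 and 7.63, 7.84 and 7.95 in Tet2-/- p10. No groups were apart, though the Tet2-/- groups met only at 7.95, and Tet2-/- p10 had the lowest group mean (7.80 ± 0.16, SD, n = 3). The mean passage effect was -0.24 ± 0.12 (adjusted p 0.239), and -0.15 without Tet2-/- p2 replicate 3.

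Dnajb1 (chromosome 8, 83608175 to 83612653) encodes HSP40, the J-domain protein that delivers clients to inducible HSP70. It measured 8.30, 8.44 and 8.19 in Tet2fl/fl p2, 8.13, 8.15 and 8.46 in Tet2-/- p2, 8.43, 8.27 and 8.40 in Tet2fl/fl p10 and 8.43, 8.49 and 8.35 in Tet2-/- p10. The groups overlapped throughout. The mean passage effect was 0.12 ± 0.07 (adjusted p 0.334), the sign opposite to that of Hspa1b and Hsph1. The row that carried Dnaja1 together with Mir207, which lies within it on chromosome 4 (40722917 to 40722995), was not tested: it measured 8.36, 8.48 and 8.43 in Tet2fl/fl p2, 8.36, 8.51 and 8.45 in Tet2-/- p2, 8.33, 8.41 and 8.30 in Tet2fl/fl p10 and 8.28, 8.15 and 8.50 in Tet2-/- p10.

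Hspa5 (chromosome 2, 34772090 to 34776529) encodes BiP, the HSP70 of the endoplasmic reticulum and a sensor partner of the unfolded protein response. Its promoter window held 4 CCAAT boxes on either strand, and 1 of them was followed after 9 bases by CCACG, the arrangement of the endoplasmic reticulum stress element. This spacing occurred in the windows of 0.137% of all genes, and CCACG or its reverse complement CGTGG alone in 35.5%. The stretch chr2:34771980-34772054 on the plus strand, upstream of the gene, shows 2 of the boxes and CCACG in capitals.
Hspa5: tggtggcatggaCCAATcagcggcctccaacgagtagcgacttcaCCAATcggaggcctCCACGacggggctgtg
Hspa5 measured 11.05, 11.15 and 11.13 in Tet2fl/fl p2, 11.04, 11.22 and 11.11 in Tet2-/- p2, 10.96, 11.09 and 10.91 in Tet2fl/fl p10 and 11.00, 10.79 and 10.99 in Tet2-/- p10. The 3 arrays of Tet2-/- p10 lay below the 3 of Tet2-/- p2, whereas the Tet2fl/fl groups overlapped. The mean passage effect was -0.16 ± 0.06 and missed the threshold (unadjusted p 0.024, adjusted p 0.126).

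Hspd1 (HSP60) and Hspe1 (HSP10), which form the mitochondrial chaperonin, are neighbours on chromosome 1 and are transcribed away from each other. Hspd1 spans 55077833 to 55088243 on the minus strand and Hspe1 55088148 to 55091317 on the plus strand, so that their RefSeq intervals overlap by 96 bases. Between the inner Hspd1 start site (55087932) and the Hspe1 start site (55088148) lay 215 bases, and these held a heat shock element of 4 alternating units over 18 bases. It is shown because both genes share it, at chr1:55088053-55088082 on the plus strand, upstream of Hspe1 and within the RefSeq interval of Hspd1, with the units in capitals.
Hspe1 and Hspd1: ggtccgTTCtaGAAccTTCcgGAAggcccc
An element of at least 3 units was found for 3 of the 7 members with a RefSeq window (Hsph1, Hspd1 and Hspe1) and for 0.662% of 27025 genes, and a pair of units for 5 of the 7. In these counts Hspd1 and Hspe1 carry the same element. For Hspd1 it lay in the window of the inner start site, and the window of the start site at 55088243 held 0. A match describes the letters only. Hsp90aa1, Hsp90ab1 and Hspa8 had no window in the table.

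Hspd1 measured 10.69, 10.85 and 10.80 in Tet2fl/fl p2 and 10.95, 10.78 and 11.13 in Tet2-/- p2. At passage 10 it measured 10.62, 10.74 and 10.50 in Tet2fl/fl and 10.38, 10.70 and 10.59 in Tet2-/- cells. All Tet2-/- p10 arrays lay below all Tet2-/- p2 arrays, while the Tet2fl/fl groups overlapped. The passage difference in Tet2-/- cells was -0.39 ± 0.11 (adjusted p 0.0796), and that in Tet2fl/fl cells -0.16 ± 0.11 (adjusted p 0.637). With the replicate block the mean passage effect passed for 2 of 8 members, Hsp90aa1 and Hspd1, against 7.28% of all genes lower in that fit.

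Hspe1 measured 8.17, 8.02 and 8.22 in Tet2fl/fl p2, 8.17, 8.41 and 8.40 in Tet2-/- p2, 8.01, 8.30 and 7.78 in Tet2fl/fl p10 and 7.96, 8.12 and 8.01 in Tet2-/- p10. As for Hspd1, the Tet2-/- groups did not overlap and the Tet2fl/fl groups did. The passage difference in Tet2-/- cells was -0.30 ± 0.13 (adjusted p 0.201), and that in Tet2fl/fl cells -0.11 ± 0.13 (adjusted p 0.78). The Tet2fl/fl value was -0.25 without Tet2fl/fl p10 replicate 2 and 0.01 without Tet2fl/fl p10 replicate 3. Tet2-/- p2 had the highest group mean of both chaperonin genes, with differences from Tet2fl/fl p2 of 0.17 ± 0.11 for Hspd1 and 0.19 ± 0.13 for Hspe1 that did not pass (adjusted p 0.653 and 0.658). The arrays of Tet2-/- p2 enter both this comparison and the passage comparison in Tet2-/- cells.

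**Figure D2:**
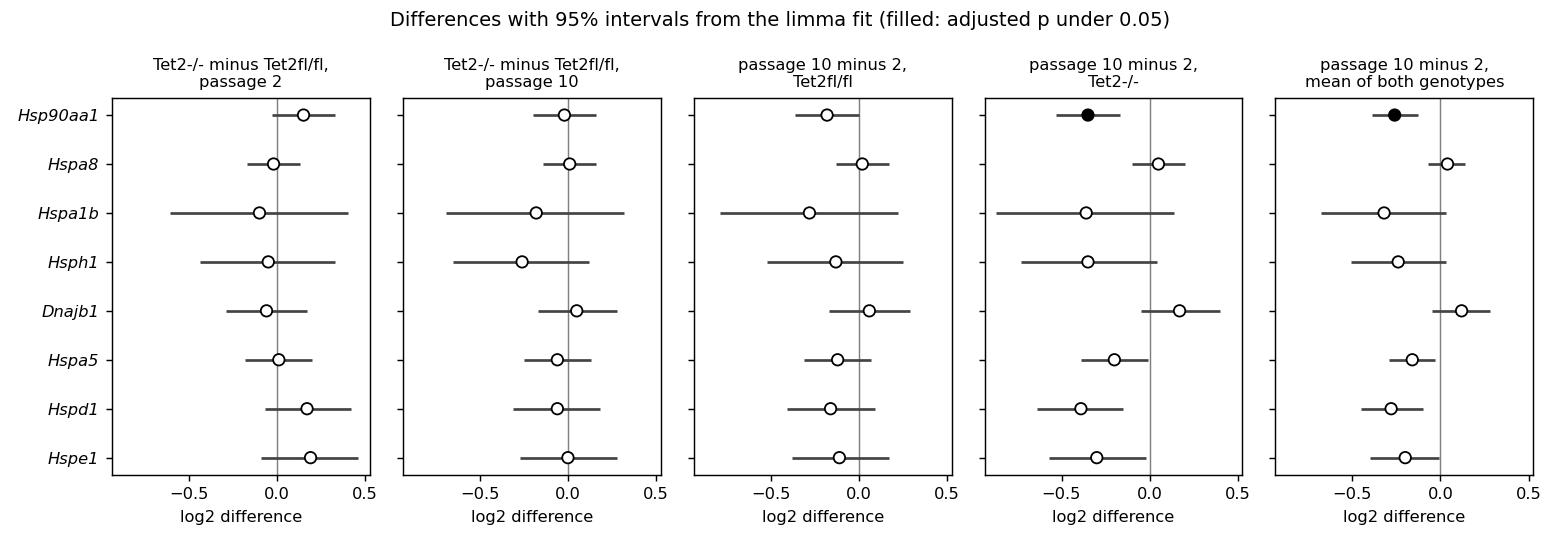
Log2 differences (horizontal axis) of the 8 tested chaperones (vertical axis) with 95% intervals from the limma fit, in 5 comparisons, filled points marking an adjusted p under 0.05. Hsp90aa1 is filled for passage 10 minus 2 in Tet2-/- cells (-0.35) and for the mean of both genotypes (-0.26), and no point is filled in either genotype comparison.

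Across the members, the passage 10 values in Tet2-/- cells were lower for 6 of 8, with Hspa8 and Dnajb1 on the other side, and the median difference was -0.32, against 0.04 over all genes. The groups did not overlap, with passage 10 lower, for 4 of 8 members (Hsp90aa1, Hspa5, Hspd1 and Hspe1), against 12.9% of all genes lower and 28.3% in either direction. In Tet2fl/fl cells 6 of 8 were lower as well, with a median of -0.13 against 0.03, and 1 of 8 did not overlap (Hsp90aa1), against 14.5% of all genes. Those 4 members of the Tet2-/- comparison were the ones with an unadjusted p under 0.05 there, as 21.6% of all genes had. The same 4 had one for the mean passage effect (26.8% of all genes), whose median over members was -0.22, and with the replicate block 6 of 8 had one (31.5% of all genes). The median in Tet2-/- cells was -0.19 without Tet2-/- p2 replicate 3. That array was above the gene's own mean for 8 of 8 members and the highest of its group for 6, with a mean deviation of 0.29.

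**Figure D3:**
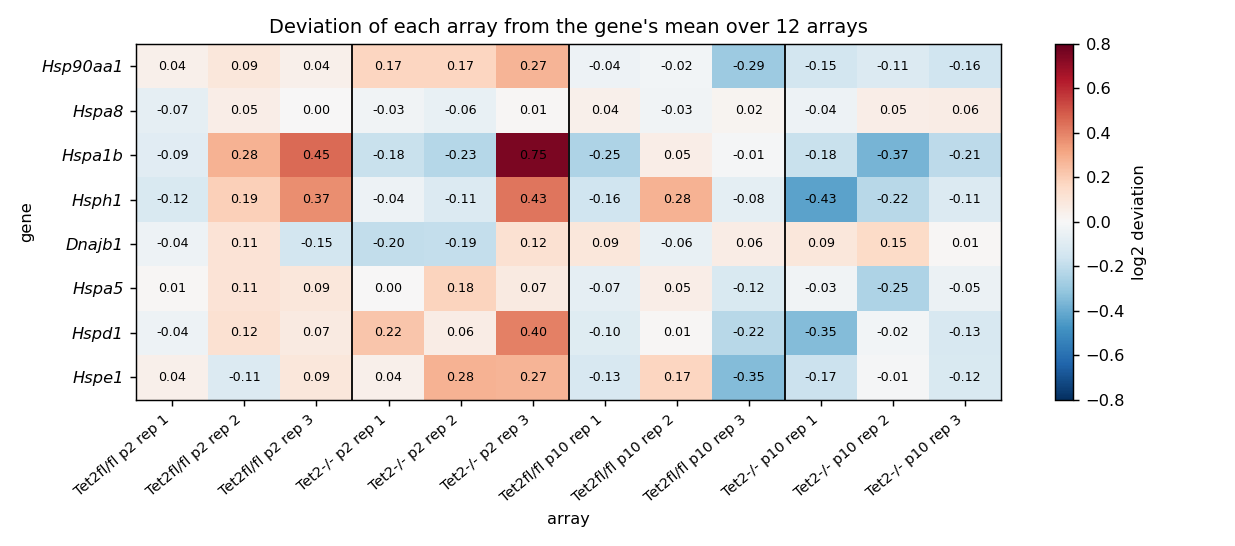
Deviation of every array (horizontal axis, 12 arrays in 4 groups) from the mean of each gene (vertical axis) over 12 arrays, in log2 units, with the value printed and the colour running from blue (below) to red (above). The column of Tet2-/- p2 replicate 3 is above the mean in 8 of 8 rows, with Hspa1b at 0.75, and the row of Hspa8 stays close to 0.

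Between genotypes, the members showed no difference that passed. At passage 2, 0 of 8 were called (0.00593% of all genes), at passage 10 0 of 8 (0.225%) and for the mean of both passages 0 of 8 (1.72%). No member had an unadjusted p under 0.05 in these limma fits, with or without the replicate block. Of all genes tested, 1677, 1788 and 2720 had one in these comparisons without the block, and 2253, 2445 and 3438 with it. With only 8 members, a count of 0 is not read as evidence that genotype had no effect. The medians over members were 0.00, -0.04 and 0.00. Only Hsp90aa1 at passage 2 had groups that did not overlap, higher in Tet2-/- cells by 0.15 ± 0.08 (adjusted p 0.592), as 1 of 8 members against 15.3% of all genes. At passage 10 no member's groups were apart (16.4% of all genes).

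At passage 10 the 95% interval of the ratio of Tet2-/- to Tet2fl/fl was 0.869 to 1.12 for Hsp90aa1, 0.839 to 1.09 for Hspa5, 0.807 to 1.14 for Hspd1, 0.827 to 1.21 for Hspe1 and 0.886 to 1.22 for Dnajb1. For the more variable Hspa1b and Hsph1 it was 0.622 to 1.25 and 0.638 to 1.09. The difference between the genotype effects at the 2 passages was called for 0 of 8 members and 0% of all genes, with 0 members and 543 genes at an unadjusted p under 0.05. Its member estimates ran from -0.24 (Hspd1) to 0.12 (Dnajb1), each with an adjusted p of 0.999. Without Tet2-/- p2 replicate 3, the passage 2 genotype difference of Hspa1b was -0.42 in place of -0.10 (adjusted p 0.352).

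The wider chaperone network was followed in 8 further lists with 119 genes, of which 111 were tested. For the mean passage effect 8 of them fell and 1 rose, 8.11% of the 111 against 7.77% of all genes, and with the replicate block 16 fell and 1 rose, 15.3% against 13.2%. In Tet2-/- cells 4 fell and 1 rose (4.5% against 2.98% of all genes), and with the block 14 fell and 1 rose (13.5% against 7.94%). The shares for the mean passage effect were near those of all genes, and nothing particular to the network is read from these counts. In Tet2fl/fl cells none passed in either fit. The median of the 111 mean passage effects was -0.06, against 0.04 over all genes.

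Hspa9 (mortalin), the HSP70 of the mitochondrial matrix that works upstream of HSP60, averaged 11.06 in Tet2fl/fl p2, 11.20 in Tet2-/- p2, 10.85 in Tet2fl/fl p10 and 10.80 in Tet2-/- p10. Its mean passage effect was -0.30 ± 0.06 (adjusted p 0.0161), with all passage 10 arrays below all passage 2 arrays, and it passed in every fit that left out 1 array. Among the 11 tested genes of other HSP70, HSP110 and HSP90 proteins it was the only call. Hspa14, a ribosome-associated HSP70, differed by -0.22 and missed the threshold (adjusted p 0.0543), but passed with the block (0.0369), in 4 of 9 alternatives counting the block, and in 2 of 12 fits that left out 1 array. Tomm70a, the outer membrane receptor to which cytosolic HSP70 and HSP90 hand mitochondrial preproteins, fell by 0.32 ± 0.06 (adjusted p 0.018) and passed in all 12 such fits too. Of the 25 tested HSP90 and HSP70 co-chaperones, Ppid, an HSP90-binding cyclophilin, was the other call (-0.27 ± 0.07, adjusted p 0.0374), which was lost in 9 of 12 fits that left out 1 array (adjusted p up to 0.087) and after equal medians, quantile normalisation or no filter. Bag1, an HSP70 exchange factor, and Cdc37l1, a relative of the kinase co-chaperone Cdc37, missed the threshold (adjusted p 0.0603 and 0.0543). With the block they passed (0.0428 and 0.0307), as they did in 4 of 9 alternatives counting the block, and in 1 and 2 of 12 fits that left out 1 array.

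The cytosolic chaperonin TRiC, which folds actin and tubulin, and prefoldin, which delivers chains to it, held 4 falling genes of 13 tested for the mean passage effect and none rising, where 4.52% of all genes were called lower and 7.77% in either direction. Cct8, a TRiC subunit, averaged 10.23, 10.38, 10.03 and 9.93 in Tet2fl/fl p2, Tet2-/- p2, Tet2fl/fl p10 and Tet2-/- p10, and its mean passage effect of -0.33 ± 0.06 (adjusted p 0.0166) passed in all 12 fits that left out 1 array. Pfdn6, a prefoldin subunit, changed by -0.33 ± 0.07 (adjusted p 0.0212) a call that ended when replicate 3 of either Tet2fl/fl group or Tet2-/- p10 replicate 2 was left out (adjusted p up to 0.0574). Cct6a, another TRiC subunit, changed by -0.30 ± 0.07 (adjusted p 0.0276) and was lost in 7 of 12 such fits (adjusted p up to 0.073) and after equal array medians (0.0525). Pfdn2, also a prefoldin subunit, changed by -0.28, and by -0.47 in Tet2-/- cells, and both passed with the replicate block but not without it. Vbp1, a prefoldin subunit named here after its value was seen, changed by -0.28 (adjusted p 0.0415) and was lost in 10 of 12 such fits and after equal array medians, no filter or array weights. Of the other TRiC subunits, none of them called, Cct4 (0.02) and Cct2 (-0.03) were closest to the median over all genes (0.04). Tcp1 (-0.18), Cct5 (-0.13), Cct7 (-0.12) and Cct3 (-0.08) lay further below it.

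Of 22 tested J-domain proteins, 1 was called higher and 1 lower for the mean passage effect, where 7.77% of all genes were called. Dnaja4 rose with passage by 0.31 ± 0.08 (adjusted p 0.0374) and Dnajc2, the ribosome-associated zuotin homologue, fell by 0.32 ± 0.08 (adjusted p 0.0362), calls that were lost in 8 and 10 of 12 fits that left out 1 array (adjusted p up to 0.0931 and 0.0875), the first also with no filter (0.0501) and the second after equal array medians (0.0538). In Tet2-/- cells Dnaja4 rose by 0.52 ± 0.11 (adjusted p 0.0375). Dnajc9, a histone-binding J-domain protein, differed by -0.40 there and passed with the block but not without it (adjusted p 0.025 and 0.106).

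In Tet2-/- cells the 4 falling network genes were Hspa9 (-0.40, adjusted p 0.0341), Tomm70a (-0.47, 0.0289), Cct8 (-0.45, 0.0313) and Pfdn6 (-0.48, 0.0344). These calls, and that of Dnaja4, were lost when replicate 1 or 3 of Tet2-/- p2, or any 1 array of Tet2-/- p10, was left out. In those 5 fits between 0 and 2 of all genes passed, against 503 with all 12 arrays. Dnaja4 was lost in 7 of 12 fits that left out 1 array. All 5 calls were also lost with only the compared groups (adjusted p up to 0.079), that of Cct8 also after equal array medians and that of Dnaja4 with no filter.

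The small heat shock proteins, which bind unfolding proteins without ATP, had 0 of 8 tested genes called in any of the 7 comparisons. Over all genes, 0% to 7.77% were called in them. In limma 0 of the 8 had an unadjusted p under 0.05, against 543 to 4520 of all genes by comparison. Their median mean passage effect was 0.06. Cryab and Hspb7, the nearest to passing in this list, had mean passage effects of 0.11 ± 0.07 and 0.16 ± 0.13. Heat shock factors and their regulators had 0 of 5 called, against the same shares of all genes. Hsbp1, a negative regulator of heat shock factor 1, was lower by 0.20 in Tet2-/- cells over both passages (adjusted p 0.122). Within Tet2-/- cells, Hsf2bp was higher by 0.25 at passage 10 than at passage 2 (adjusted p 0.157). Hsf2 was lower by 0.41 in that passage comparison and was not called. No row was annotated with Hsf1. The 25 tested endoplasmic reticulum chaperones and unfolded protein response genes had no call with passage and a median of 0.00. Of all genes, 7.77% were called for the mean passage effect.

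For the genotype, averaged over passages, 1 of the 111 network genes was higher and 1 lower in Tet2-/- cells (1.8% against 1.72% of all genes), and with the replicate block 4 were higher and 1 lower (4.5% against 5.41%), shares near those of all genes. Ern1, the IRE1 sensor kinase of the unfolded protein response, averaged 9.80 and 9.79 in Tet2fl/fl cells and 10.12 and 10.17 in Tet2-/- cells at passages 2 and 10, a difference of 0.35 ± 0.07 (adjusted p 0.0288). Dnajb14, a J-domain protein of the endoplasmic reticulum membrane, averaged 7.89 and 7.91 in Tet2fl/fl cells and 7.60 and 7.61 in Tet2-/- cells, a difference of -0.30 ± 0.06 (adjusted p 0.0249). These calls were lost in 9 and 7 of 12 fits that left out 1 array (adjusted p up to 0.0871 and 0.078). The mitochondrial proteases Lonp1 and Afg3l2 differed by 0.44 and 0.28 and missed the threshold (adjusted p 0.0543 and 0.0501). With the block they passed (0.012 and 0.041), as they did in 6 of 9 alternatives counting the block, and in 1 and 2 of 12 fits that left out 1 array. Hspa5, the main downstream chaperone of that response, differed by -0.02 ± 0.06 between the genotypes.

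**Figure D4:**
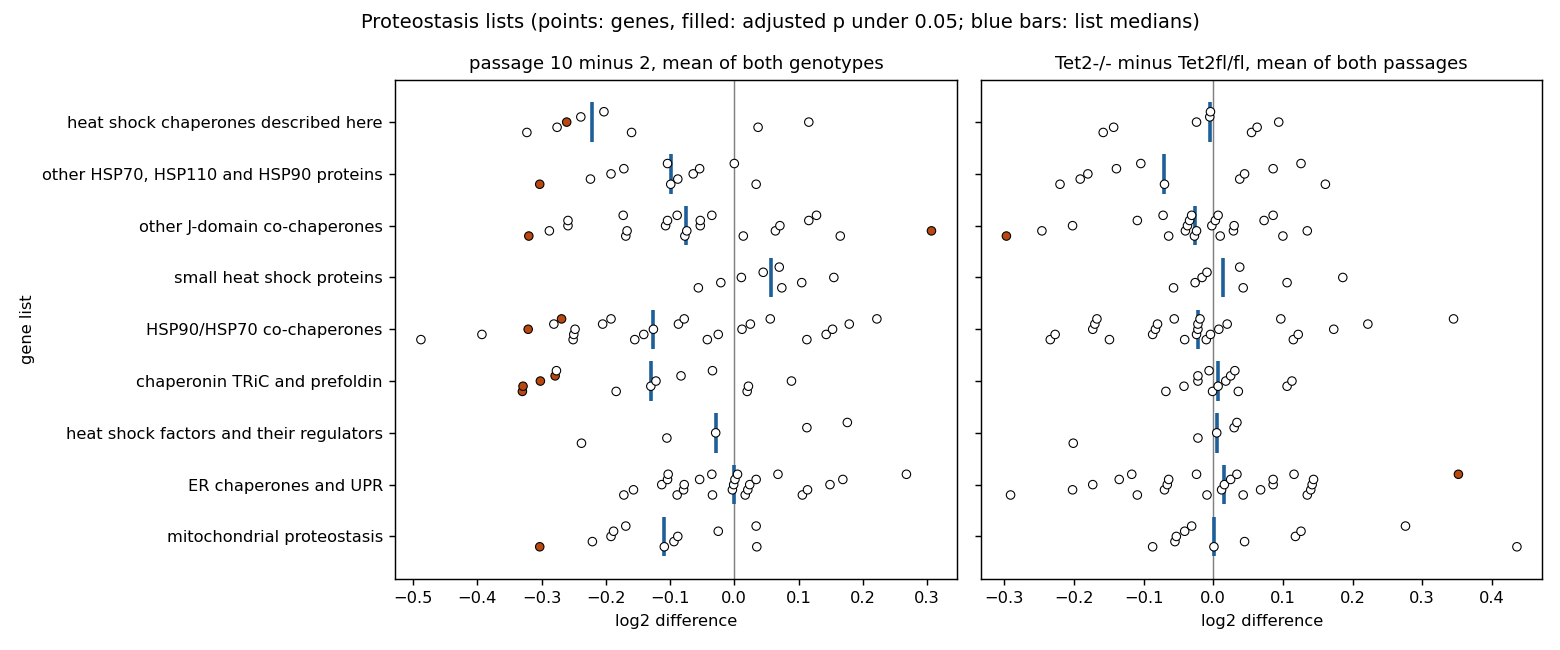
Log2 differences (horizontal axes) of the genes in the 9 chaperone and proteostasis lists (vertical axis), for passage on the left and genotype on the right, with filled points for an adjusted p under 0.05 and blue bars for list medians. The members have a median of -0.22 for passage and 0.00 for genotype, and the 4 filled TRiC and prefoldin genes lie between -0.33 and -0.28.

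Other transcripts moved with passage on the same arrays. Of 10 sort gate and progenitor markers, 4 were lower and 6 higher at passage 10 in the mean of both genotypes, with a median of 0.06. Elane averaged 11.58 in Tet2fl/fl p2, 11.36 in Tet2-/- p2, 10.2 in Tet2fl/fl p10 and 9.68 in Tet2-/- p10. Its mean passage effect of -1.53 passed with the replicate block but not without it. Of 10 maturing neutrophil markers, 8 were lower at passage 10 in the mean of both genotypes, with a median of -0.74. The list had 1 call (Ngp, -1.81, adjusted p 0.0275), where 7.77% of all genes were called. The mean level of that list ranged from 7.81 to 8.56 in Tet2-/- p2 and from 6.79 to 7.59 in Tet2-/- p10, which did not overlap, and from 7.77 to 9.16 and from 6.51 to 8.25 in Tet2fl/fl p2 and p10. Of 7 tested erythroid and megakaryocyte markers, 7 were higher at passage 10 with a median of 0.31. The 1 call was Ppbp (1.75 ± 0.30, adjusted p 0.014), against the same 7.77% of all genes. Of 9 tested monocyte and macrophage markers, 6 were higher at passage 10 with a median of 0.17. In limma 0 were called, and 3 had an unadjusted p under 0.05 (26.8% of all genes). With the replicate block 2 were called (13.2% of all genes). Immediate early genes, which respond within minutes to signals and to handling of cells, were higher at passage 10 in Tet2-/- cells for 11 of 12, with a median of 0.30 against 0.04 over all genes. Of these 12, 6 had an unadjusted p under 0.05 in limma (21.6% of all genes) and 0 were called (2.98% of all genes). Fos (0.74) and Fosb (0.71) had the highest values. The mean level of that list ranged from 7.98 to 8.48 in Tet2-/- p2 and from 8.45 to 8.77 in Tet2-/- p10, and from 8.08 to 8.40 and from 8.11 to 8.54 in Tet2fl/fl p2 and p10. Its median was 0.04 in Tet2fl/fl cells and 0.28 for the mean passage effect, and the difference between the genotype effects was above 0 for 12 of 12, with 0 at an unadjusted p under 0.05. The mean passage effect of Zfp36 (0.575) passed with the replicate block but not without it. With genotype, 8 of 11 mast cell and basophil markers were lower in Tet2-/- cells, with a median of -0.30 and Tpsab1 at -1.43 ± 0.22 (adjusted p 0.0124), and Kit was lower by 0.82 (adjusted p 0.022). Of the immediate early genes, 10 of 12 were higher in Tet2-/- cells over both passages. The 1 gene of that list called was lower, Nr4a1 (-0.545), where 1.72% of all genes were called. The part of these transcripts in the chaperone differences was not tested.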

How the data were processed

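Each of the 12 samples was hybridised to 1 array. The authors deposited log2 values from RMA, a background correction, between-array normalization and summary of probes into rows, run in Affymetrix Power Tools per the submitters' processing notes, which name no version. They were used unchanged here. Of 41345 rows, 28941 with a mean at or above the 30th percentile (log2 4.70) were kept, and 23521 rows had 1 gene symbol, 1814 several and 16010 none. Symbols came from the platform annotation, updated from a RefSeq gene table of GRCm38.p6 (23328 rows matched). A gene with several rows was represented by that of highest mean.

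A linear model with 1 mean for each group was fitted across the 12 arrays (limma 3.58.1, R 4.3.3, 8 residual and 3.33 prior degrees of freedom), giving 7 contrasts: genotype at each passage, passage in each genotype, their difference, and the mean genotype and passage effects. P-values are two-sided and adjusted by Benjamini and Hochberg over 16860 genes within a contrast, with a threshold of 0.05, and 95% intervals are unadjusted. Only the fit without the replicate block was tried on simulated data. There the noise was independent between arrays and the shifts were larger than the member differences described here. The block, the filter and the promoter search were not simulated.

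The labels give the groups replicate numbers 1 to 3. Deviations from group means correlated at 0.201 to 0.517 for 18 same-numbered pairs and at -0.369 to 0.0532 for the 36 others, so the numbers pair the arrays, and the fit with the replicate number as a block is given where it changes a call. The block leaves 6 residual degrees of freedom.

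The members and lists were chosen with earlier results of these data known. From each further list the genes that passed, with or without the block, were named, at most 4 per list, or the 2 nearest to passing. Marker lists gave at most 2 each, of which Fcer1a, S100a8, Cd68, Ccr2 and Gata1 are not described. Some genes were named outside this rule, among them gate transcripts, Vbp1, further TRiC subunits, Fos and Fosb. Promoters are RefSeq windows from 250 bases before to 50 after a start site. They were searched on both strands for 3 alternating units of GAA and TTC with 2 bases between them, for the pairs GAANNTTC and TTCNNGAA, which overlap that element, and for CCAAT boxes and CCACG, each read with its reverse complement. The alternatives tried were array medians made equal, quantile normalization, dropping the filter or raising it to the 50th percentile, array weights, a trended and robust variance prior, the block as fixed or random, the mean of a gene's rows, only the groups compared, and leaving out each array.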

Additional observations from a re-analysis of the deposited data

How the results depend on the processing

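Of 1201 values of the 8 tested chaperones under the alternatives, 1172 kept their direction and their side of the threshold or had not passed in the first place, 21 lost a call, 8 gained one and 0 called values reversed. Of the values that had not passed, 48 changed sign. With 1 call as reported for passage 10 minus passage 2 in Tet2-/- cells (Hsp90aa1), 0 of 8 members were called after equal array medians, quantile normalization, no filter or only the groups compared, 2 with array weights, and 0 to 1 when 1 array was left out. The member median of that comparison ranged from -0.37 to -0.19 when 1 array was left out. For the mean passage effect, also with 1 call as reported, 2 members were called with quantile normalization, the filter at the 50th percentile, array weights, a trended and robust variance prior, the replicate block and the block as random effect, the second being Hspd1, and 0 to 2 when 1 array was left out. The replicate block changed no other call of a member. Over all genes, the counts called ranged over all alternatives from 0 to 1728 for passage in Tet2-/- cells, from 358 to 2223 for the mean passage effect, from 98 to 912 for the mean genotype effect, from 3 to 221 and 0 to 69 for genotype at passages 10 and 2, and from 0 to 7 for passage in Tet2fl/fl cells. The cause of these shifts was not tested. Fits that left out an array also had fewer arrays, and the filter choices also changed the number of genes tested.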
